A study of Homo sapiens with 8 samples.

Results

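The genes described here are 43 protein-coding genes of chromosome band 16q22. They were listed by name because they lie on one stretch of chromosome 16 and, as a set, shifted upward in Panc 10.05 cells labelled ELAPOR1 overexpression. All 43 were found by symbol among the 58870 gene rows of the count table. Panc 10.05 is an established cell line from a human pancreatic ductal adenocarcinoma. Bulk RNA sequencing covered 4 libraries of Panc 10.05 labelled control and 4 labelled ELAPOR1 overexpression, both from the same line. ELAPOR1 encodes a transmembrane protein of the endosome and lysosome. The labels give no vector, promoter, culture time or batch, and do not say whether the ELAPOR1 overexpression cells were 1 clone or a pool. They also do not say whether the replicates were separate cultures, so p-values measure only the spread between these libraries.

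The 43 genes share a place rather than a pathway. Among them are CTCF, the zinc-finger protein that anchors chromatin loops with cohesin, the shelterin subunits ACD and TERF2 that cap telomeres, and assembly factors of both ribosomal subunits. Others code for parts of the Golgi tether COG, for the ATPase VPS4A that takes the membrane-cutting ESCRT-III polymer apart, and for surface proteins of epithelial cells such as the P-cadherin CDH3.

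The promoters of several close pairs are shown first, since the list is one of neighbouring genes. Promoter windows, running from 250 bases before to 50 bases after a RefSeq gene start on GRCh38.p14, were matched by symbol for 36 of the 43 genes, with 47 windows in all. CDH3, ESRP2, LCAT, NFAT5, SF3B3, ST3GAL2 and TERF2 had no match. NIP7 (chr16:69339522-69339821, plus strand), UTP4 (chr16:69132399-69132698, plus strand), PRMT7 (chr16:68310769-68311068, plus strand) and DUS2 (chr16:68023034-68023333, plus strand) are shown because each starts close to a listed gene on the other strand. NUTF2 (chr16:67846683-67846982, plus strand) and NFATC3 (chr16:68085120-68085419, plus strand) are shown because they hold the motif bound by THAP11, itself one of the 43. Sequences are the gene's own strand, 5′ to 3′, and capitals mark every match to the motifs named after them.
NIP7: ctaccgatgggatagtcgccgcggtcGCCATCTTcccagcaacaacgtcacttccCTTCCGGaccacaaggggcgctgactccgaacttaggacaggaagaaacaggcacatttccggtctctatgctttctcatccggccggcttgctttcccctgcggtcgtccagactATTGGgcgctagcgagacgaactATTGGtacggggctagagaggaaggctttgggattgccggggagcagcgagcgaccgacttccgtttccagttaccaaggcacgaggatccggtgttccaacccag
UTP4: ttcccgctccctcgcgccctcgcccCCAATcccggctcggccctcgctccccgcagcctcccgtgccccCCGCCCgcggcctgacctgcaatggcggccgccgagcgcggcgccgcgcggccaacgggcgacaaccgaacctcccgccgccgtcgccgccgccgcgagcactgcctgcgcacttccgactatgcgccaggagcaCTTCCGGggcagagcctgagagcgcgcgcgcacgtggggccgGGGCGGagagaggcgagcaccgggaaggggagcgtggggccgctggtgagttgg
PRMT7: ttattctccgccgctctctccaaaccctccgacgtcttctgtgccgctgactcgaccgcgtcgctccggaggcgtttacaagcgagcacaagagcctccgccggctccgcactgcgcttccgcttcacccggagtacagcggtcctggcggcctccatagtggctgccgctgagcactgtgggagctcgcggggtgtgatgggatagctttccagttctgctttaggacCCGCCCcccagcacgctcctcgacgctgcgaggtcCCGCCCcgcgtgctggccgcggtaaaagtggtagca
DUS2: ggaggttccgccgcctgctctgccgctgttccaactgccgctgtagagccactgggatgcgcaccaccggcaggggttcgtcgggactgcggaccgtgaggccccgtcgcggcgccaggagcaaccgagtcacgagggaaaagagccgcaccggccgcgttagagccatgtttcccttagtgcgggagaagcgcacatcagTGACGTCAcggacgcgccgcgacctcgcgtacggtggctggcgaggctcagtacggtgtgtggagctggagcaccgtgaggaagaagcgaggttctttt
NUTF2: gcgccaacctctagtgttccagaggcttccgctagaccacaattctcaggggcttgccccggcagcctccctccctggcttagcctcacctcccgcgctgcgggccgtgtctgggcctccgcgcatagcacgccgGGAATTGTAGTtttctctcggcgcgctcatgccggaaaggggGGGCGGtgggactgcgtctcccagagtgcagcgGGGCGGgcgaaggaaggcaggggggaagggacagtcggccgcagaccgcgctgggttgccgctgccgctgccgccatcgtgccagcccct
NFATC3: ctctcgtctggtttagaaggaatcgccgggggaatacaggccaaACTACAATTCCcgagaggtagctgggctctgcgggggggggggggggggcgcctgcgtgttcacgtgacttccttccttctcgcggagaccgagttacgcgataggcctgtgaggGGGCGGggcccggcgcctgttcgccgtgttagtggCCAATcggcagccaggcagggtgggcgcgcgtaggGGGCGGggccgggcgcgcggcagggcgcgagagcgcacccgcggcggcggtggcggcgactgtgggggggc

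The motifs were searched on both strands as fixed letters. They were CCGGAAG for ETS factors, GGGCGG for SP factors, the box named after its letters CCAAT, the TATA box spelled TATAAA, AAGATGGC for YY1 and TGACGTCA for the cyclic AMP response element. The longer motifs of THAP11 with ZNF143, of NRF1 and of the CTCF core were also searched. Each was searched on its own, so matches of different motifs may overlap. Windows of genes with close starts also overlap, so the same match can count for both genes. The ETS letters stood in 12 of 47 member windows (25.5%) and in 10.3% of the 35116 windows of all genes, and the SP letters in 70.2% of member windows and in 15786 of the 35116. The YY1 letters stood in the windows of COG4, COG8, NIP7 and RANBP10 (8.51% of member windows, 2.89% of all), and the cyclic AMP element in those of DDX19A, DDX28, DUS2 and PARD6A (8.51% and 1.85%). The THAP11 and ZNF143 motif stood in NFATC3 and NUTF2, where it began at -206 and -115 bases from the start. That is 4.26% of member windows and 0.231% of all windows. The CCAAT box was in 38.3% of member windows and 34.6% of all, the TATA box in 4.26% and 11.5%, NRF1 in 2.13% and 1.24%, and the CTCF core in no member window and 0.0655% of all. Member windows were rich in G and C, with a median of 67.0% against 58.7% for all windows. The ratio of observed to expected CG pairs was over 0.6 in 80.9% of member windows and 48.8% of all. The motif shares are not adjusted for these differences. A match to these letters is a description of the sequence and not a measured binding site.

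Expression is given as counts per 1000000 counts (CPM), scaled between libraries by TMM, which assumes that most genes do not change. The control libraries held 16558597 to 18128732 counts and the ELAPOR1 libraries 13765504 to 17258149. The ELAPOR1 gene, listed under KIAA1324, had 1 to 4 counts in the control libraries and 5910 to 7368 in the ELAPOR1 libraries. That row does not separate the cells' own transcripts from introduced ones. All 5 epithelial markers checked (EPCAM, KRT7, KRT8, KRT18 and KRT19) were counted in every library. Their summed level was 11574.8 to 12868.5 CPM in control and 10787.3 to 11144.2 CPM in ELAPOR1 libraries, so the groups did not overlap. Of 10 markers of immune, endothelial, fibroblast and other pancreatic cells, 4 (CD3E, CDH5, INS and PRSS1) were at 0 in all libraries, and the summed level of the 10 was 87.3 to 92.7 CPM in control and 76.8 to 83.3 in ELAPOR1 libraries. Most of that was CD68, a lysosomal protein, at 72.6 to 87.8 CPM. The part of these marker differences in the results below was not tested.

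All 43 genes passed the filter on low counts, as 13860 of the 58870 rows did. The lowest count of any member in any library was 50, for ENKD1. The list was chosen on the contrast of ELAPOR1 with control, so the fold changes of its members in that contrast are given as a description, without a test. A gene is called here when the adjusted p of edgeR's quasi-likelihood test over all 13860 genes was under 0.05. By that rule 31 members were called higher in ELAPOR1 libraries and 1 lower, and 11 were not called. Across all tested genes 22.6% were called higher and 22.1% lower. The log2 fold changes of ELAPOR1 over control ran from -0.22 to 0.86 with a median of 0.26, and the median over all tested genes was 0.0009. In 29 members the CPM of all 4 ELAPOR1 libraries lay above all 4 control libraries, a pattern found in 20.0% of all tested genes, and no member had all ELAPOR1 libraries below all control libraries (19.3% of all tested genes). Most changes were small: the members' summed level was 2662 ± 12.6 CPM in control and 3153 ± 14.4 CPM in ELAPOR1 libraries (SD, n = 4 each), a ratio of 1.185.

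**Figure D1:**
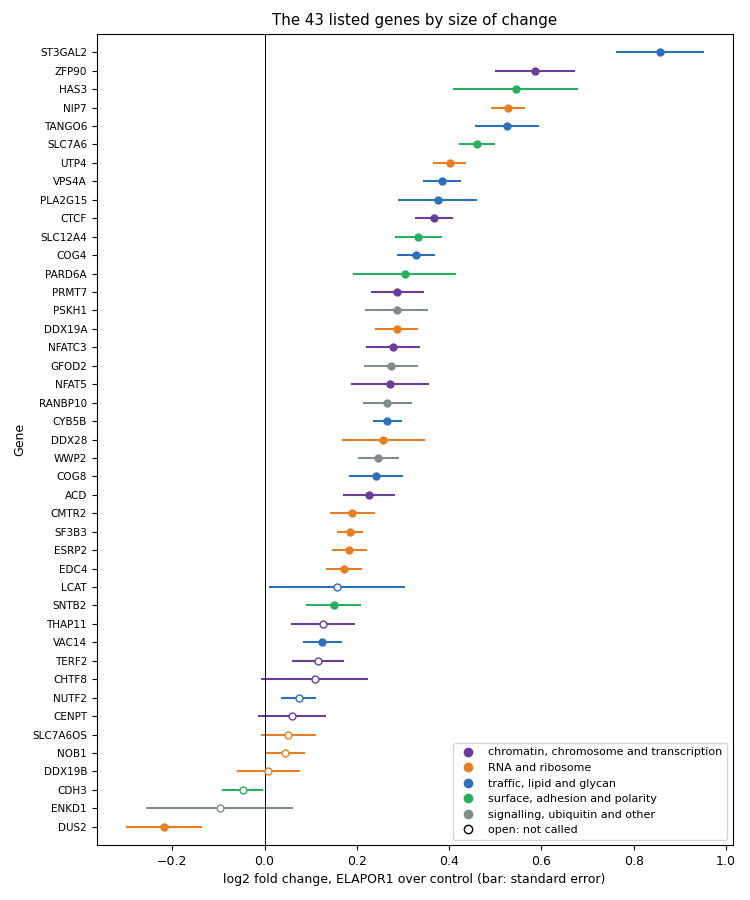
The log2 fold change of ELAPOR1 over control (horizontal axis) of each of the 43 genes (vertical axis), with its standard error as a bar, coloured by role, with open points for genes not called. ST3GAL2 is highest at 0.86, DUS2 lowest at -0.22, and 40 of the 43 points lie above 0.

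Not every listed gene was higher. The 11 members not called were CENPT, THAP11, TERF2, CHTF8, SLC7A6OS, NOB1, DDX19B, NUTF2, LCAT, CDH3 and ENKD1. CDH3 and ENKD1, with DUS2, were the members below 0. The shift was even over the libraries of a group. In the 4 ELAPOR1 libraries 38, 39, 37 and 40 of the 43 members lay above their control mean on the log2(CPM + 1) scale, against 16, 22, 25 and 27 in the 4 control libraries. The members' median difference from the control mean was 0.227, 0.218, 0.241 and 0.241 on that scale in the ELAPOR1 libraries and ran from -0.016 to 0.030 in the control libraries.

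**Figure D2:**
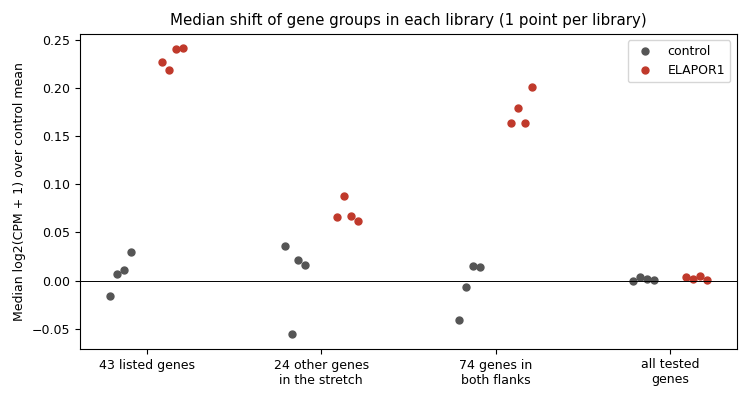
The median log2(CPM + 1) over the control mean (vertical axis) in each library (points; grey control, red ELAPOR1) for the listed genes, the other genes of the stretch, the genes within 5 Mb of it and all tested genes. The listed genes sit at 0.218 to 0.241 in ELAPOR1 libraries, the flanking genes at 0.164 to 0.201, the other genes of the stretch at 0.062 to 0.087, and all tested genes near 0 in both groups.

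The counts of each role group are to be read against all tested genes, of which 22.6% were called higher and 22.1% lower. The 10 members that act on chromatin, chromosomes and transcription had a median log2 fold change of 0.25, with 6 called higher and 4 not called. CTCF, which lies first on the stretch (chr16:67562407-67639185, plus strand), read 84.8, 75.2, 83.5 and 79.8 CPM in the control libraries and 101.8, 105.3, 105.0 and 105.1 CPM in the ELAPOR1 libraries. The means were 80.8 ± 4.29 and 104.3 ± 1.66 CPM (SD, n = 4), a log2 fold change of 0.37 ± 0.04 (standard error). All ELAPOR1 libraries lay above all control libraries. ZFP90, a KRAB zinc-finger protein of the kind that recruits repressors, had the largest change of this group. Its control libraries read 10.9, 11.6, 11.1 and 10.9 CPM and its ELAPOR1 libraries 16.8, 17.6, 17.7 and 14.7 CPM. That is 1.502 times the control level, with a gap between the groups. CENPT, which links the inner kinetochore to its outer plates, had the smallest change. It read 28.1, 26.3, 33.4 and 32.5 CPM in control and 30.4, 28.3, 31.3 and 34.8 CPM in ELAPOR1 libraries, so the groups overlapped over most of their range (log2 fold change 0.060 ± 0.07).

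The other chromatin genes lay between those. The calcium-regulated transcription factor NFATC3 had a log2 fold change of 0.28 and the osmotic stress factor NFAT5 one of 0.27. NFATC3 overlaps AC020978.5, which was called lower at -0.40, and both are given with the overlapping genes below. The arginine methyltransferase PRMT7 was at 0.29. NFAT5 had the widest spread of control CPM among the members, at 143.0 to 189.7 CPM in control and 193.6 to 215.3 CPM in ELAPOR1 libraries. It was no longer called when any 1 of ELAPOR1 replicates 2, 3 and 4 or control replicates 2 and 3 was left out. Of the shelterin pair, ACD was called at 0.23 (39.2 ± 3.34 against 45.9 ± 1.23 CPM) and TERF2 was not at 0.12 (35.8 ± 2.14 against 38.8 ± 1.01 CPM), and the difference between them was not tested. THAP11, a zinc-finger factor that works with HCFC1, was at 0.13, and CHTF8, a small subunit of the clamp loader for sister chromatid cohesion, at 0.11. CHTF8 had a wide spread in ELAPOR1 libraries, from 67.5 to 96.8 CPM against 71.6 to 84.3 CPM in control.

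The 12 members that act on RNA and the ribosome had a median of 0.18, with 8 called higher, 1 lower and 3 not called. NIP7, an assembly factor of the large ribosomal subunit, read 89.98, 89.63, 85.4 and 89.8 CPM in control and 130.0, 131.3, 125.7 and 124.6 CPM in ELAPOR1 libraries. The log2 fold change was 0.53 ± 0.04, and the gap between the groups was several times the spread within either. UTP4, a subunit of the small-subunit processome that folds the nascent ribosomal RNA, was at 0.40 (99.8 ± 3.09 against 131.9 ± 1.80 CPM). The endonuclease NOB1, which makes the last cut of small-subunit RNA, differed by less than its spread, at 82.0 ± 4.24 and 84.5 ± 2.07 CPM. DDX28, a helicase of the mitochondrial ribosome, was at 0.26 and had few reads, with 10.4 to 12.01 CPM in control and 12.7 to 14.5 CPM in ELAPOR1 libraries. It was not called without control replicate 2 or without ELAPOR1 replicate 4.

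DUS2, which makes dihydrouridine in transfer RNA, was the member called lower. Its control libraries read 20.4, 18.6, 19.2 and 23.8 CPM and its ELAPOR1 libraries 18.6, 15.9, 18.8 and 17.1 CPM. The groups overlapped, and control replicate 4 was the highest library. The log2 fold change was -0.22 ± 0.08, and DUS2 was no longer called without control replicate 4, without ELAPOR1 replicate 2, without ELAPOR1 replicate 4, with the DESeq2 Wald test or with total count scaling.

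The messenger RNA factors of the list moved little but with small errors. SF3B3, a core subunit of the SF3B complex that holds the branch point during splicing, had the highest CPM of the 43. It read 330.5, 332.9, 337.2 and 337.9 CPM in control and 373.5, 385.2, 383.0 and 380.8 CPM in ELAPOR1 libraries. At a log2 fold change of 0.19 ± 0.03 the 2 groups were still well apart. CMTR2, which methylates the cap-adjacent part of messenger RNA and lies last on the stretch (chr16:71281389-71289715, minus strand), read 83.8, 78.1, 71.5 and 68.8 CPM in control and 84.6, 85.2, 89.5 and 86.1 CPM in ELAPOR1 libraries. The highest control library came within 1 CPM of the lowest ELAPOR1 library, and the log2 fold change was 0.19 ± 0.05. ESRP2, a splicing regulator of the epithelial state, was at 0.18 (101.4 ± 1.75 against 115.1 ± 3.89 CPM), and EDC4, the scaffold of the decapping complex, at 0.17. SLC7A6OS, which helps bring RNA polymerase into the nucleus, was at 0.052.

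DDX19A and DDX19B are near-identical neighbours that code for helicases of messenger RNA export at the nuclear pore. DDX19A read 67.7, 74.4, 74.9 and 76.1 CPM in control and 85.6, 97.1, 83.9 and 90.6 CPM in ELAPOR1 libraries. DDX19B read 26.5, 29.6, 28.7 and 29.1 CPM in control and 25.04, 30.47, 27.93 and 31.03 CPM in ELAPOR1 libraries. The groups were apart for DDX19A (log2 fold change 0.29 ± 0.05) and overlapped for DDX19B (0.008 ± 0.07). In the transcript models 48.3% of the 31-base words of DDX19B and 39.9% of those of DDX19A occur in other genes. Most of these (43.8% and 31.3% of all words) occur in AC012184.2, a protein-coding gene that overlaps both, so how reads were divided among the 3 genes is uncertain. Summed, the pair was at 101.8 ± 5.06 CPM in control and 117.9 ± 8.13 CPM in ELAPOR1 libraries, and DDX19B took 28.0% ± 0.38 and 24.3% ± 1.29 of the sum (SD, n = 4).

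The 10 members of membrane traffic, lipid and glycan metabolism had a median of 0.30, with 8 called higher and 2 not called. ST3GAL2, a Golgi sialyltransferase that caps galactose on glycolipids and O-glycans, changed most of the whole list. It read 7.21, 8.50, 8.45 and 7.87 CPM in control and 15.4, 14.4, 14.4 and 13.8 CPM in ELAPOR1 libraries. The level in ELAPOR1 libraries was 1.81 times that in control, with every library of a group close to its mean. TANGO6, a protein of transport and Golgi organisation, was at 0.53 (18.6 ± 0.68 against 26.8 ± 1.68 CPM). The ATPase VPS4A was at 0.38, and the lysosomal phospholipase PLA2G15 also at 0.38.

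The Golgi tether subunits COG4 and COG8 were at 0.33 and 0.24. The outer mitochondrial membrane cytochrome CYB5B was at 0.27 (198.6 ± 4.78 against 238.8 ± 4.74 CPM), and VAC14, the scaffold of the PIKfyve lipid kinase, at 0.13. VAC14 was not called without ELAPOR1 replicate 3. NUTF2, which carries Ran back into the nucleus, had the smallest change of this group. It read 115.5, 128.2, 115.7 and 123.0 CPM in control and 129.9, 125.5, 128.6 and 123.9 CPM in ELAPOR1 libraries, and the groups overlapped (log2 fold change 0.074 ± 0.04). LCAT, the plasma enzyme that esterifies cholesterol, was sparse at 4.01 to 5.03 CPM in control and 4.39 to 5.83 CPM in ELAPOR1 libraries and was not called.

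**Figure D3:**
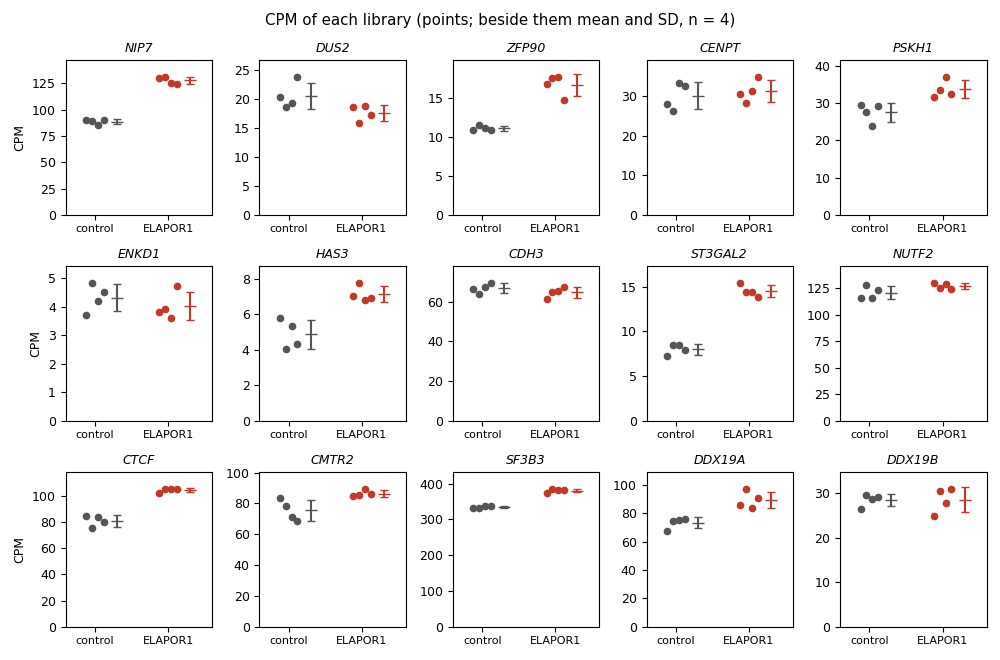
CPM (vertical axis, from 0) in each control (grey) and ELAPOR1 (red) library for 15 members, with the mean and SD of 4 libraries beside the points. The groups are apart for NIP7, ZFP90, PSKH1, HAS3, ST3GAL2, CTCF, CMTR2, SF3B3 and DDX19A and overlap for DUS2, CENPT, ENKD1, CDH3, NUTF2 and DDX19B.

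The 6 members at the cell surface or in polarity had a median of 0.32, with 5 called higher and 1 not called. HAS3, a hyaluronan synthase of the plasma membrane, had the largest change of these and a low level. It read 5.82, 4.07, 5.33 and 4.33 CPM in control and 7.06, 7.78, 6.84 and 6.92 CPM in ELAPOR1 libraries, which is 1.46 times the control level with no overlap. CDH3, the P-cadherin of epithelial junctions, had the smallest. It read 66.3, 63.9, 67.6 and 69.4 CPM in control and 61.1, 64.7, 65.4 and 67.2 CPM in ELAPOR1 libraries, with a log2 fold change of -0.048 ± 0.05 and groups that overlapped. SLC7A6, an exchanger of cationic for neutral amino acids, was at 0.46 (114.8 ± 6.83 against 158.0 ± 4.89 CPM), and SLC12A4, a potassium-chloride cotransporter, at 0.33 (38.9 ± 0.80 against 49.1 ± 1.6 CPM). The polarity protein PARD6A was at 0.30 and SNTB2, a syntrophin of the dystrophin complex, at 0.15. Libraries of both groups overlapped for PARD6A and SNTB2. PARD6A was not called without ELAPOR1 replicates 1 or 3 or control replicates 1 or 2, and SNTB2 not without ELAPOR1 replicates 2, 3 or 4 or control replicates 2, 3 or 4.

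The 5 remaining members had a median of 0.27, with 4 called higher and 1 not called. PSKH1, a serine kinase of the Golgi and centrosome, read 29.4, 27.6, 23.9 and 29.3 CPM in control and 31.7, 33.6, 37.0 and 32.5 CPM in ELAPOR1 libraries. The groups did not overlap, and the log2 fold change was 0.29 ± 0.07. GFOD2, a secreted protein with an oxidoreductase fold, and RANBP10, a Ran-binding protein, were both at 0.27. The HECT-type ubiquitin ligase WWP2 was at 0.25. ENKD1, a microtubule protein, had the lowest level of the 43. It read 3.71, 4.84, 4.195 and 4.51 CPM in control and 3.81, 3.93, 3.60 and 4.73 CPM in ELAPOR1 libraries, and the groups overlapped fully (-0.097 ± 0.16).

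Genes that start beside each other on opposite strands are given here side by side where both had a RefSeq window. Distances are between RefSeq starts, which differ from those of the GENCODE models for some genes. SF3B3 had no window, so its pair with COG4 has no distance here. In the GENCODE models COG4 starts at 70523565 (minus strand) and SF3B3 at 70523788 (plus strand). The log2 fold changes of COG4 and SF3B3 were 0.33 ± 0.04 and 0.19 ± 0.03. The starts of COG8 and NIP7 are 208 bases apart, and their log2 fold changes were 0.24 ± 0.06 and 0.53 ± 0.04. Those of CHTF8 and UTP4 are 61 bases apart, with 0.11 ± 0.12 and 0.40 ± 0.04. Those of SLC7A6OS and PRMT7 are 73 bases apart, with 0.052 ± 0.06 and 0.29 ± 0.06. DDX28 and DUS2, 52 bases apart, took opposite signs at 0.26 ± 0.09 and -0.22 ± 0.08. ACD and PARD6A, 700 bases apart, were alike at 0.23 ± 0.06 and 0.30 ± 0.11, and so were CENPT and NUTF2, whose RefSeq starts are 501 bases apart with transcribed parts that overlap, at 0.060 ± 0.07 and 0.074 ± 0.04. Errors are standard errors, and no difference within a pair was tested. The promoter windows of the pairs 52 to 208 bases apart overlap. In those windows the ETS letters are shared by both genes of the COG8 and NIP7 pair and of the CHTF8 and UTP4 pair. The YY1 letters are shared by COG8 and NIP7, and the cyclic AMP element by DDX28 and DUS2.

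Several members overlap another gene, and the use of strand in counting is not given in the sources used here, so reads of overlapping parts could have gone to either gene. SLC7A6OS shared most, with 80.4% of its 31-base words also found in SLC7A6. SLC7A6 itself shared 58.6% of its words, CYB5B 56.0% and NFATC3 49.8%, and 8 members shared none. Most of the shared words of NFATC3 (43.95% of all its words) occur in AC020978.5. NFATC3 went from 28.32 CPM in control to 34.32 CPM in ELAPOR1 libraries, and AC020978.5 from 30.26 to 22.96 CPM. How reads were divided between NFATC3 and AC020978.5 was not tested. Of the 18 members with no overlapping protein-coding gene, 16 were called higher and none lower, with a median of 0.27. Of the 25 with one, 15 were called higher and 1 lower, with a median of 0.23. Of the 18 with under 5% of words shared, 16 were called higher and none lower, with a median of 0.26. Over all tested genes 22.6% were called higher and 22.1% lower. The members were chosen on this contrast, so these counts are a description, and the effect of overlap was not tested.

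Per kilobase of the longest transcript, the control level of the members had a median of 11.8 CPM, and that of all tested protein-coding genes 8.45. NOB1 (47.3 CPM per kilobase), NUTF2 (46.3), CYB5B (45.6) and SF3B3 (34.4) were highest on this scale, and ST3GAL2 (0.902) and HAS3 (1.16) lowest. The median GC content of the members was 54.0%, against 48.1% for all tested protein-coding genes. Across the 43 genes the log2 fold change had a Pearson r of 0.40 with log2 transcript length, -0.22 with GC content and -0.12 with log2 control CPM. These values describe 43 genes that share 8 libraries and a chromosome, so no test applies. With trends in GC content and length removed, the members' median was 0.22.

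The stretch from the start of CTCF to the end of CMTR2 (chr16:67562407-71289715, GRCh38, GENCODE 29 gene models, 3.73 Mb) held 115 other gene rows, of which 24 passed the filter. Of these 24, 6 were called higher and 4 (16.7%) lower. Over all tested genes the shares were 22.6% and 22.1%, so the unlisted genes were called higher about as often as any tested gene. The median of these 24 genes was 0.11. That median ran from -0.02, without control replicate 2, to 0.11 when single libraries were left out, and was under 0.072 without any 1 of ELAPOR1 replicates 1, 2 and 4 or control replicates 1, 2 and 3. Among them CDH1, the E-cadherin of epithelial junctions and the next cadherin gene after CDH3, was at 342.6 ± 12.1 CPM in control and 370.0 ± 6.73 CPM in ELAPOR1 libraries (log2 fold change 0.11). PDPR, a regulator of pyruvate dehydrogenase, had the largest rise at 0.65 (73.9 ± 4.29 against 115.8 ± 2.10 CPM). PDF, a mitochondrial peptide deformylase, was at 0.48, the exosome subunit EXOSC6 at 0.32 and the quinone reductase NQO1 at 0.32. AC026464.4, which overlaps VPS4A, was at 0.41. The 4 called lower were AC020978.5 at -0.40, the fucokinase FUK at -0.28, AC012321.1 at -0.18 and the alanyl-transfer RNA synthetase AARS at -0.09. AC009022.1 at 0.11, PSMB10 at 0.004 and MTSS1L at -0.03 were not called. The 2 largest falls by fold, AC012184.2 at -0.56 and NPIPB14P at -0.49, were in sparse genes and not called. With the listed genes included, 54 genes of the stretch had a mean of at least 5 CPM, and 41 of them were members. Of the 54, 37 (68.5%) were called higher and 5 (9.26%) lower, with a median of 0.25. The shares over all genes at that level were 26.3% and 25.1%. Most of the 54 were chosen on this contrast, so the pooled count largely restates that choice.

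**Figure D4:**
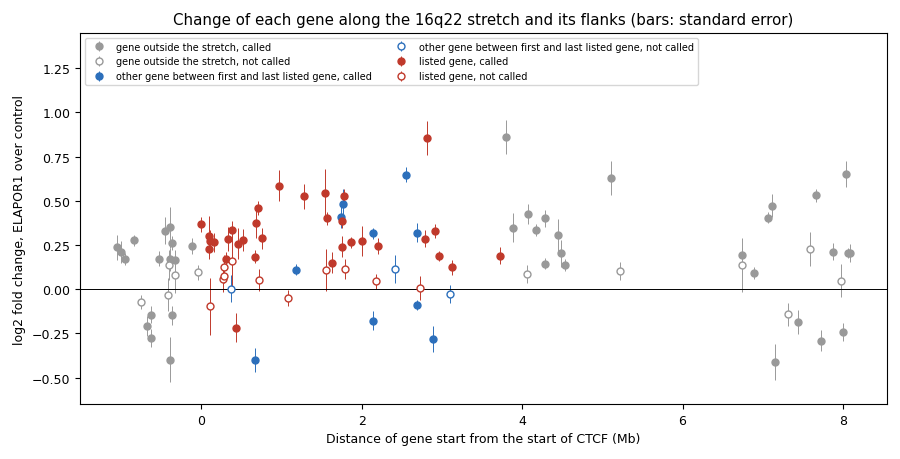
The log2 fold change of ELAPOR1 over control (vertical axis, bars: standard error) against the distance of a gene's start from that of CTCF in Mb (horizontal axis), for the listed genes (red), other genes of the stretch (blue) and genes outside it (grey), the last 2 kinds with a mean of at least 5 CPM; filled points were called. Most filled points lie above 0 on both sides of the list as well as inside it.

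Genes on both sides of the listed ones were also called higher. Just inside the list lie CTCF at 0.37 and CMTR2 at 0.19. The nearest tested gene before it, AC027682.7, was sparse and not called at -0.34, and the nearest coding genes with at least 5 CPM were RIPOR1 at 0.095, not called, and ATP6V0D1 at 0.24. After it came CALB2 at 0.86 (9.24 ± 0.96 against 16.8 ± 1.23 CPM), ZNF23 at 0.35 and MARVELD3 at 0.086, not called. The range that the list was drawn from on this contrast extended past CMTR2, and CALB2, ZNF23 and MARVELD3 lay within it. Values just after CMTR2 are therefore not independent of the choice of the stretch. Of 35 tested genes within 5 Mb before the stretch, 15 were called higher and 5 lower, with a median of 0.17. Of 39 within 5 Mb after it, some of them in that range, 21 were called higher and 5 lower, with a median of 0.20. That is 42.9% higher and 14.3% lower before the stretch and 53.8% and 12.8% after it. Over all tested genes the shares were 22.6% and 22.1%. The largest rises in the flanks were PLEKHG4 at 2.80, from 0.407 to 2.91 CPM, and CMTM1 at 0.92 before it, and CHST4 at 0.92 and CALB2 after it. The largest falls were FBXL8 at -0.41, not called, and HSF4 at -0.40 before it, and PMFBP1 at -0.56, not called, and ZNF821 at -0.46 after it.

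The same direction extended over much of the chromosome. From 45 Mb on and outside the stretch, 236 genes of chromosome 16 were tested, among them those of the chosen range after CMTR2. Of the 236, 109 were called higher and 26 lower, with a median of 0.16. Before 45 Mb, 373 genes were tested, with 134 called higher and 52 lower and a median of 0.090. The shares were 46.2% higher and 11.0% lower from 45 Mb on, and 35.9% and 13.9% before it. Over all tested genes they were 22.6% and 22.1%. In windows of 5 Mb the medians between 10 and 30 Mb were 0.28 to 0.39, above those of the 2 windows that hold the listed genes, 0.18 from 65 to 70 Mb and 0.14 from 70 to 75 Mb. Windows from 45 Mb to the end had medians of 0.099 to 0.21, and those of the first 10 Mb were below 0. By chromosome, the median of chromosome 16 was 0.14 over 676 tested genes, with 41.4% called higher, and the next highest was chromosome 2 at 0.10 with 35.8%. The difference of the listed genes from the rest of chromosome 16 was not tested, because the list was chosen on the same contrast.

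**Figure D5:**
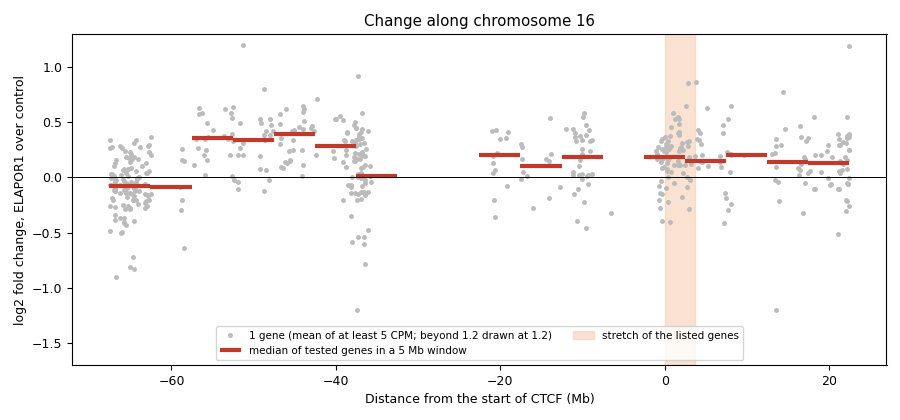
The log2 fold change of ELAPOR1 over control (vertical axis) of genes on chromosome 16 with a mean of at least 5 CPM (grey points; extreme values drawn at the edge) against the distance from the start of CTCF in Mb (horizontal axis), with the median of tested genes in each 5 Mb window in red. The shaded stretch of the listed genes lies among windows whose medians are 0.099 to 0.21, while the windows with the highest medians, 0.28 to 0.39, lie far to the left.

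Genes that work with the members but lie elsewhere were not among the genes that the list was chosen on. The partner and paralog lists were, however, drawn up with earlier results of these data known. Their counts and p-values are therefore not an independent test. On other chromosomes 156 of 168 partner and paralog genes were tested. Of the 156, edgeR called 43 higher (27.6%) and 36 lower (23.1%), with a median of 0.034. Across all tested genes these shares were 22.6% and 22.1%. The small-subunit processome and late small-subunit factors, the partners of UTP4 and NOB1, were the list with the largest share higher. Of 14 tested, 10 were higher and 1 lower, with a median of 0.22 against 0.0009 over all genes. WDR43 rose by 0.39 (144.5 ± 8.41 against 190.0 ± 6.40 CPM, edgeR adjusted p = 1.6e-10), and HEATR1 by 0.35 (edgeR adjusted p = 3e-09).

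For the partners of the RNA factors, the shares to read the counts against are those of all tested genes, 22.6% called higher and 22.1% lower. Of 6 SF3B subunits outside chromosome 16, 3 were higher and 2 lower, and PHF5A (0.34, edgeR adjusted p = 3.9e-06) and SF3B4 (0.29, edgeR adjusted p = 5.1e-08) led the rises. Of 6 export factors around DDX19A, 3 were higher and none lower, among them the pore protein NUP214 (0.19, edgeR adjusted p = 0.00031) and NUPL2 (0.18, edgeR adjusted p = 0.019). Of 5 cap enzymes, the CMTR2 paralog CMTR1 rose by 0.17 (edgeR adjusted p = 0.0018) and RNMT, which methylates the cap guanine, fell by 0.28 (edgeR adjusted p = 1.4e-07). The ESRP2 paralog ESRP1 fell by 0.23 (325.9 ± 7.70 against 276.9 ± 4.07 CPM, edgeR adjusted p = 4.8e-08). PTBP1, a splicing repressor, rose by 0.35 (edgeR adjusted p = 1.3e-12). Of 8 decapping genes tested, DCP2, the decapping enzyme, fell by 0.14 (edgeR adjusted p = 0.025) and 7 were not called. The edgeR adjusted p of DCP2 was 0.097 without ELAPOR1 replicate 1, 0.079 without ELAPOR1 replicate 3, 0.081 without control replicate 1 and 0.058 with total count scaling. That of NUPL2 was 0.074 without ELAPOR1 replicate 1, 0.055 without control replicate 1 and 0.063 without control replicate 2.

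Among partners of the chromatin genes, 5 of 13 cohesin, CTCF and THAP11 partners were higher and 3 lower. The counts here are again to be read against 22.6% higher and 22.1% lower over all tested genes. HCFC1, the cofactor of THAP11, rose by 0.31 (177.5 ± 3.42 against 220.2 ± 5.74 CPM, edgeR adjusted p = 6.9e-10). ZNF143, which binds the same motif, fell by 0.43 (38.3 ± 2.55 against 28.3 ± 1.18 CPM, edgeR adjusted p = 4.2e-07). Of 14 inner kinetochore genes 5 were higher and 2 lower, with CENPS at 0.46 (edgeR adjusted p = 0.014) and CENPO at 0.44 (edgeR adjusted p = 4.2e-10). Of 6 clamp loader genes 3 were higher and 1 lower, with RFC3 at 0.36 (edgeR adjusted p = 1.4e-05) and RFC4 at -0.23 (edgeR adjusted p = 5.6e-05). Of 8 telomere genes, the nuclease DCLRE1B rose by 0.47 (edgeR adjusted p = 8.1e-08), the helicase RTEL1 fell by 0.25 (edgeR adjusted p = 0.016) and 6 were not called. The edgeR adjusted p of RTEL1 was 0.13 without ELAPOR1 replicate 1, and that of CENPS was 0.093 without ELAPOR1 replicate 4 and 0.084 without control replicate 2. Of 14 NFAT pathway and osmotic genes 2 were higher and 2 lower. AKR1B1, the aldose reductase that is a known target of NFAT5, rose by 0.68 (19.8 ± 1.94 against 31.7 ± 2.30 CPM, edgeR adjusted p = 1.6e-09), and NFATC4 fell by 0.82 from a low level (edgeR adjusted p = 0.00036).

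Of 12 ESCRT-III and VPS4 partners 3 were higher and 5 lower. CHMP1B, a filament subunit that VPS4A acts on, fell by 0.54 (140.6 ± 4.86 against 96.9 ± 3.19 CPM, edgeR adjusted p = 8.6e-14), and the microtubule-severing SPAST rose by 0.27 (edgeR adjusted p = 0.00075). Of 5 COG subunits on other chromosomes COG2 rose by 0.25 (edgeR adjusted p = 0.0032) and COG1 fell by 0.17 (edgeR adjusted p = 0.022). The edgeR adjusted p of COG1 was 0.059, 0.072, 0.056 and 0.086 without ELAPOR1 replicate 1, ELAPOR1 replicate 4, control replicate 2 and control replicate 4. FIG4, the phosphatase that VAC14 holds, fell by 0.40 (edgeR adjusted p = 0.00037), and the other gene of that complex was not called. Of 7 hyaluronan genes 2 were higher and 3 lower. The hyaluronidases HYAL1 (1.23 to 0.315 CPM, edgeR adjusted p = 0.00017) and HYAL2 (28.4 to 23.04 CPM, edgeR adjusted p = 0.00071) fell by 1.91 and 0.31. Of 6 polarity genes CDC42 rose by 0.15 (edgeR adjusted p = 0.00037), and LLGL2 fell by 0.24 (edgeR adjusted p = 3.8e-06).

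Of 30 tested paralogs of the members on other chromosomes, 4 were called higher (13.3%) and 10 lower (33.3%), with a median of -0.086. Over all tested genes the shares were 22.6% and 22.1%. Besides NFATC4, the largest change was in the sialyltransferase ST3GAL4, which fell by 0.58 (34.1 ± 1.91 against 22.9 ± 0.66 CPM, edgeR adjusted p = 3.1e-09), while ST3GAL2 was 1.81 times its control level. The difference between paralogs and members was not tested.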

How the data were processed

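The genes were taken from a list chosen, like the role groups and partner lists, with earlier results of these data known. The authors deposited 1 table of expected counts per gene for 8 libraries, not scaled between libraries. Per the submitters' processing notes, cutadapt, STAR, RSEM and DESeq2 were used with hg38. Neither the annotation nor the strand setting is given in the sources used here. RSEM divides shared reads, and 15.0% of values above 0 held a fraction. No row lacked a gene name.

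Expected counts were rounded and tested over all genes with edgeR 4.0.16 in R 4.3.3: filterByExpr, TMM, and the robust quasi-likelihood test, two-sided, ELAPOR1 against control, with no covariate and Benjamini-Hochberg adjustment over 13860 genes. Standard errors were taken from each log2 fold change and its F statistic (fold change over the root of F). The members' lowest counts in a library ran from 50 for ENKD1 to 5321 for SF3B3, and counting error is largest for the sparse ones (ENKD1, LCAT and HAS3). On simulated data with 200 changed genes, the test called 65.0% of 60 genes changed by 1.25 times and 86.7% of 45 changed by 1.5 times. It called 0.096% of 13535 unchanged ones. In the real data 44.7% of tested genes were called, a far larger share than was changed in the simulation. The adjustment depends on that share, so these rates need not hold for the real comparison.

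Coordinates, overlaps and the share of 31-base words found in other genes' transcripts are from GENCODE 29 on GRCh38, where 58552 identifiers matched without version. Promoter windows and the distances between paired starts are from RefSeq. Named genes followed a rule: all members with their log2 fold change, with values of every library for the largest and smallest change per role, the first, last and most counted member, and DDX19A with DDX19B. The rule added up to 2 called genes with the largest change per partner list, the 2 largest rises and falls in the stretch and each flank, and the nearest tested genes. CDH1, the other genes of the stretch with at least 5 CPM, the 3 nearest coding genes and the members lost under an alternative were named after their values were seen.

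The alternatives were DESeq2 1.42.0 (its size factors, and its Wald test), limma-voom (limma 3.58.1), total count and upper-quartile scaling, TMM without chromosome 16, 2 other count filters, removal of GC and length trends, a replicate block, a threshold of 0.01 and leaving out each library. Replicate numbers were checked as pairs: deviations of same-numbered libraries correlated at -0.024 to 0.036, so they were not treated as paired.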

Additional observations from a re-analysis of the deposited data

Results flagged for a closer look

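In each group of 4 libraries, the highest or lowest library stood apart when its gap to the nearest other library, divided by the whole range, passed Dixon's criterion for 4 values. Chance alone gives that in about 1 of 20 groups. Among the 158 groups of members, named partner genes and sums examined it occurred in 13, where chance would give 7.9. Control replicate 2 stood apart in 3 of them, low for DDX28 (10.4 CPM, the others 11.75 to 12.01) and NFATC3 (26.6, the others 28.77 to 28.99) and high for COG4 (84.8, the others 81.4). Control replicate 3 was low for NIP7 (85.4, the others 89.63 to 89.98) and high for COG8 (40.03, the others 34.9 to 35.5), the pair of genes whose starts lie beside each other. Control replicate 4 was high for ACD (44.2, the others 37.1 to 38.1). Control replicate 1 was low for DDX19A and DDX19B summed (94.2, the others 103.6 to 105.2).

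In the ELAPOR1 libraries, replicate 1 was low for CTCF (101.8 CPM, the others 105.0 to 105.3) and for TERF2 (37.3, the others 39.3 to 39.5). Replicate 2 was high for SLC12A4 (51.4, the others 47.9 to 48.5) and low for the partner gene SPAST (28.9, the others 31.7 to 32.1). Replicate 3 was high for UTP4 (134.5, the others 130.8 to 131.3) and low for the partner gene AKR1B1 (28.3, the others 32.65 to 33.0). For TERF2, which was not called, the library that stood apart lay within the range of the control libraries, and in the other 12 cases it lay outside the range of the other group.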

How the results depend on the processing

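Of the 32 members called, 26 were called in every alternative fit at an adjusted p under 0.05. The others were DUS2, PARD6A, SNTB2, NFAT5, VAC14 and DDX28. The count of members higher was 29 with the DESeq2 Wald test and 26 at an adjusted p under 0.01. In the settings chosen after seeing the data it was 16 of 18 members with no overlapping protein-coding gene and 16 of 18 with under 5% of words shared, where fewer genes were counted by construction. The 1 member called lower, DUS2, was not called with the DESeq2 Wald test, with total count scaling or at 0.01, nor present in either subset (0 lower in each), and the count lower was 0 to 1 when single libraries were left out. The members' median of 0.26 was 0.2215 with GC and length trends removed, 0.2789 with total count scaling, 0.2692 in the members with no overlapping coding gene and 0.2388 to 0.2615 when single libraries were left out. The median of the other genes of the stretch was 0.0939 with GC and length trends removed, 0.0566 with at least 10 counts in every library, 0.1323 with total count scaling, and -0.0170 (without control replicate 2) to 0.1090 when single libraries were left out. The flanks had 5 genes lower at 0.01, against 10, and their median of 0.17 was 0.1427 with no filter beyond 1 count, 0.1935 with total count scaling and 0.1478 to 0.1953 when single libraries were left out. Where no construction is named, the cause was not tested. Over single members, 753 values under alternatives moved by less than the spread between replicates and 21 by more.

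The replicate numbers share only a label, and a fit with the replicate number as a block called 29 members higher and 1 lower with a median of 0.2560, losing NFAT5 and SNTB2. The block called 6 and 4 of the other genes of the stretch (median 0.1144), 34 and 10 of the flanks (median 0.1730), and 41 and 35 of the partners and paralogs. Of the same-numbered libraries, those numbered 3 correlated best with each other (r = 0.036), and the other numbers did not.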
